A study of Rattus norvegicus with 97 samples.

Results

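The 9 genes described here encode subunits of the neuronal nicotinic acetylcholine receptors: Chrna2, Chrna3, Chrna4, Chrna5, Chrna6, Chrna7, Chrnb2, Chrnb3 and Chrnb4. They were chosen by symbol, as all probe sets whose annotation carries 1 of these symbols. That rule uses no measured value, though it was set with earlier results of these data known. Each gene has a single probe set, so that there are 9 of the 31042 probe sets analysed. RNA came from the nucleus accumbens shell, a part of the ventral striatum that takes part in reward, and each of the 97 Affymetrix arrays holds the RNA of 1 rat. The rats belong to 5 pairs of lines bred over generations toward high (P, HAD1, HAD2, AA, sP) or low (NP, LAD1, LAD2, ANA, sNP) voluntary alcohol drinking. There were 10 rats of each line, or 9 in LAD1, sP and sNP. As background, the P, AA and sP lines and their counterparts come from separate breeding programmes, whereas HAD1/LAD1 and HAD2/LAD2 are replicate selections from the same heterogeneous stock. The labels state line, preference and animal number, and they give no sex, age, drug treatment or alcohol exposure. The comparison asks whether receptor subunit mRNA in this region differs between lines that differ in alcohol intake.

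Nicotinic receptors are cation channels opened by acetylcholine and by nicotine, each built from subunits that surround a pore. In the striatum acetylcholine is released mainly by local cholinergic interneurons, and nicotinic receptors on the terminals of dopamine neurons help to control dopamine release. The alpha4 and beta2 subunits form the common high-affinity receptor of the brain, alpha5 and beta3 are accessory subunits that join others, and alpha7 forms receptors on its own. The alpha6 subunit is typical of dopamine and retinal projection neurons, alpha3 and beta4 of autonomic ganglia and the medial habenula, and alpha2 of sparse interneuron groups. Much of the receptor protein in the accumbens therefore sits on fibres whose cell bodies, and most of whose mRNA, lie elsewhere, and the arrays measure mRNA at the site of dissection only.

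Values are the log2 RMA signals that the authors deposited, and every level and difference below is on that scale. Array medians lay between 7.82 and 8.02. Markers of spiny projection neurons, the main neurons of the striatum, were bright in all lines (13 genes measured, line means of their average signal 11.38 to 12.53), which fits the labelled tissue. On the probe sets that best separate the 2 lines of a pair, 8 arrays did not lie with their own line. A label score, scaled from 0 for a typical non-preferring rat of the pair to 1 for a typical preferring rat, was 0.00493 for HAD1 28, 0.988 for LAD1 37, -0.039 for AA 19 and 0.93 for ANA 20. It was 0.463 for P 9, 1.05 for NP 9, 0.399 for sP 4 and 0.483 for sNP 4. AA 19 correlated with the sP arrays at a mean r of 0.9949 and with its own line at 0.9795, and ANA 20 with the sNP arrays at 0.9959 and with its own line at 0.9864. These 8 arrays are called departing arrays, all kept their labels, and calls that differ without them are given beside the result. They were chosen by how poorly they follow the line separation in these same data, so leaving them out favours line differences. More probe sets passed without them in each pair that holds such arrays. Calls gained in this way are descriptions and not independent results. Without the departing arrays the members' differences in the 4 pairs that hold such arrays moved by 0.0006 to 0.12 with a median of 0.016, and the number with an unadjusted p under 0.05 was 6 in place of 5. The sign changed for 3 of the 36 differences, all small: Chrnb3 in AA/ANA (0.03 to -0.02), Chrnb2 in sP/sNP (0.005 to -0.04) and Chrna5 in AA/ANA (1.7e-05 to -0.003).

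No nicotinic subunit passed the test in any pair. All 45 differences, 9 genes in 5 pairs, failed limma's test at an adjusted p under 0.05, with p-values adjusted over all 31042 probe sets. In each pair the 9 members can be set against the share of all probe sets that passed, which was 1.05% in P/NP, 1.2% in HAD1/LAD1, 4.6% in HAD2/LAD2, 2.35% in AA/ANA and 12.9% in sP/sNP. At these shares about 1 call or none would be found among 9 probe sets taken at large, so the absence of calls says nothing particular about the nicotinic genes. At an unadjusted p under 0.05 there were 5 of 45 differences, 1 in P/NP, 1 in HAD2/LAD2 and 3 in sP/sNP, where the shares of all probe sets were 7.63%, 14% and 30.3%. There were none in HAD1/LAD1 (9.89% of all probe sets) or AA/ANA (9.74%). For every member in every pair the animals of the lines overlapped. The shares of all probe sets that did not overlap were 0.0419% in P/NP, 0.00966% in HAD1/LAD1, 0.918% in HAD2/LAD2, 0.158% in AA/ANA and 0.49% in sP/sNP.

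Each difference has a bound. The far end of the 95% confidence interval, taken as a fold change of RMA signal, lay between 1.07-fold and 1.53-fold with a median of 1.16-fold, and it was under 1.5-fold for 44 of the 45 differences. Signals of probes near background understate differences in mRNA, so these are bounds on signal and not on transcript number. The median difference of the 9 members was 0.04 in P/NP, 0.05 in HAD1/LAD1, -0.0002 in HAD2/LAD2, 0.03 in AA/ANA and 0.005 in sP/sNP, against medians of all probe sets within 0.01 of 0. The median size of the members' differences was 0.043 in P/NP, 0.076 in HAD1/LAD1, 0.078 in HAD2/LAD2, 0.039 in AA/ANA and 0.079 in sP/sNP. All probe sets had median sizes of 0.049, 0.050, 0.057, 0.051 and 0.084 in the same order, so that the members were not at a constant side of them. In P, HAD1, AA and sP rats 6, 7, 7 and 6 of the 9 subunits had the higher mean, and in HAD2 rats 4 of 9 had.

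**Figure D1:**
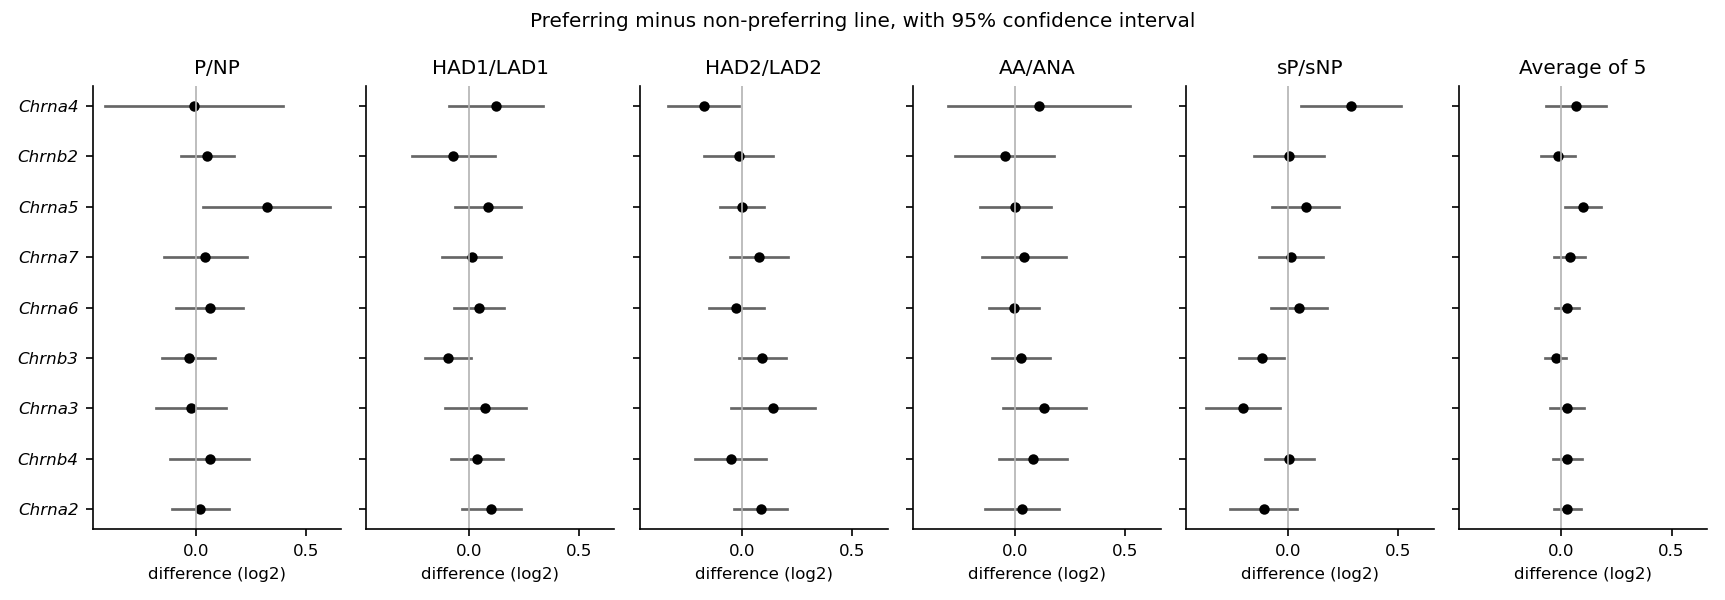
Difference of each nicotinic subunit in each of the 5 line pairs and on average over them (panels), preferring minus non-preferring line in log2 signal, with 95% confidence intervals from limma. None passed at an adjusted p under 0.05; the intervals of 5 of the 45 pair differences, and that of Chrna5 on average, lie clear of 0.

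Chrna4 encodes the alpha4 subunit, which with beta2 makes the high-affinity receptor that nicotine occupies at low concentration. In P rats the Chrna4 signal had a lowest value of 5.22, a median of 5.78 and a highest of 6.91, and in NP rats 5.56, 5.82 and 6.16. The P values enclosed all NP values, and the difference was -0.01 ± 0.194 (SE), or -0.13 without P 9 and NP 9. In HAD1 rats it ran from 5.85 over a median of 6.13 to 6.66, and in LAD1 rats from 5.79 over 6.17 to 6.26, with a difference of 0.12 ± 0.102 and overlapping ranges. HAD2 rats had 6.26, 6.33 and 6.66 and LAD2 rats 6.16, 6.53 and 6.88. Here the preferring line had the lower mean (difference -0.17 ± 0.077, interval -0.33 to -0.01, unadjusted p = 0.0347, limma adjusted p = 0.29), and the HAD2 range lay inside that of LAD2. AA rats had 5.18, 5.69 and 7.42 and ANA rats 5.00, 5.75 and 6.17, with a difference of 0.11 ± 0.199. A single AA array made the highest value, and without AA 17 the difference was -0.07 (limma adjusted p = 1).

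In the Sardinian lines Chrna4 lay at a lowest of 5.17, a median of 5.31 and a highest of 5.85 in sP, and at 4.74, 5.20 and 5.53 in sNP. The sP mean was 0.28 ± 0.109 above the sNP mean (interval 0.06 to 0.51, unadjusted p = 0.0172, limma adjusted p = 0.0855), and the lines overlapped. Without the departing arrays sP 4 and sNP 4, 8 rats against 8, the difference was 0.35 ± 0.111 and passed (limma adjusted p = 0.0435, with 15% of all probe sets passing). Those arrays were chosen on line separation, which favours a line difference, so this call is given as a description. In the same lines 11 of 13 measured spiny neuron markers passed as lower in sP (limma adjusted p under 0.05), with a median difference of -0.94 over the 13. Of 10 markers of the neighbouring pallidal, septal and basal forebrain neurons 3 passed as higher, and of 6 markers of cholinergic neurons 2 did. Of all probe sets 12.9% passed in this pair in either direction, and 7.08% passed as higher in sP. A spiny neuron index, the mean of the first list minus that of the second on each array, had a mean of 3.31 in sP (2.1 to 4.6) and 4.59 in sNP (3.6 to 5.3). With the index as a covariate the Chrna4 difference was -0.0022 ± 0.0945 (limma adjusted p = 1), and without the departing arrays 0.05 ± 0.101. The index itself differed between the lines, so a line effect and an effect of what was dissected cannot be told apart in this fit. In bulk tissue, moreover, fewer cells of a type and less RNA per cell cannot be told apart.

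Chrnb2, the beta2 partner of alpha4, is made by most central neurons. In P/NP its lowest, median and highest signals were 6.14, 6.39 and 6.61 in P and 6.25, 6.33 and 6.58 in NP. They were 5.91, 6.26 and 6.36 in HAD1, 5.66, 6.35 and 6.53 in LAD1, 6.40, 6.75 and 7.04 in HAD2 and 6.61, 6.74 and 6.99 in LAD2. AA rats had 5.73, 6.48 and 6.65, ANA rats 5.80, 6.46 and 6.68, sP rats 5.71, 5.92 and 6.17 and sNP rats 5.58, 5.96 and 6.17. Within each pair the medians lay close together, and the 5 differences ran from -0.07 (HAD1/LAD1) to 0.05 (P/NP). The subunits of the main receptor thus differed in spread: the within-line SD of Chrna4, 0.347, was larger than that of 92.7% of probe sets, and that of Chrnb2, 0.192, than that of 63.8%. Their signals, with line means removed, correlated at r = 0.21 over the 97 arrays, which is a description of these arrays.

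The proximal promoters of this subunit pair are printed because the genes share a receptor but not their spread between animals. The sequences are those of RefSeq on the GRCr8 build, 5′ to 3′ on the gene's strand, from 250 bases before to 50 after the annotated start, and 6 of the 9 subunits had an entry there (Chrna3, Chrna4, Chrna5, Chrna7, Chrnb2, Chrnb4). Capitals mark GC boxes, searched as GGGCGG on both strands.
Chrna4 (chr3:188534477-188534776, minus strand): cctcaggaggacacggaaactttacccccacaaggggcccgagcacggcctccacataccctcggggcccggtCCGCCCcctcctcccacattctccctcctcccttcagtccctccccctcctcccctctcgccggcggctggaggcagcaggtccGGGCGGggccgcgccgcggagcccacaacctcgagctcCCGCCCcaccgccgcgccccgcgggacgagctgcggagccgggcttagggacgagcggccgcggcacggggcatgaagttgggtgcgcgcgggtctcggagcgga
Chrnb2 (chr2:177487257-177487556, minus strand): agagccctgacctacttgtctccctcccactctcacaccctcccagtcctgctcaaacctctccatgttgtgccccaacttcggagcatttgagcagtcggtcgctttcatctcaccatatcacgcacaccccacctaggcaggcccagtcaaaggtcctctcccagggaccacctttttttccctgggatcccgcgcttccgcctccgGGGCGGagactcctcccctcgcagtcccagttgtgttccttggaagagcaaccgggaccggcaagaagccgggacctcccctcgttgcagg
The Chrna4 window holds 3 GC boxes and the Chrnb2 window 1, and 33.1% of 33465 rat promoter windows hold at least 1. Chrna5 has 4, Chrna3 and Chrna7 have 2 each, and Chrnb4 has 1. The G and C content was 74.7% for Chrna4 and 61% for Chrnb2, with a median of 51.7% over all windows. Neither TATAAA (in 14.2% of windows) nor the cAMP response element TGACGTCA (in 1.83%) was found in any of the 6. These are letters in a window, with no measurement of a factor's binding.

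Chrna5 encodes the alpha5 subunit, which joins alpha4 and beta2 as an accessory subunit and raises the calcium permeability of the receptor. P rats had a lowest Chrna5 signal of 5.40, a median of 5.85 and a highest of 6.73, and NP rats 5.10, 5.61 and 5.95. The P mean of 5.94 stood 0.32 ± 0.138 above the NP mean of 5.61 (interval 0.04 to 0.61, unadjusted p = 0.0295, limma adjusted p = 0.511), and the NP animals overlapped the lower part of the P range. This was the largest of the 45 differences in size. Without P 9 and NP 9 it was 0.39 (limma adjusted p = 0.281). With each array left out in turn it lay between 0.23 and 0.38. When all 10 lines shared 1 estimate of the spread, the same difference passed (limma adjusted p = 0.0241, with 2.45% of all probe sets passing), a fit in which the standard error no longer rests on the P and NP animals alone. The standard error of Chrna5 was 0.138 in P/NP and 0.049 to 0.078 in the other pairs. In the other pairs the Chrna5 differences were 0.09 (HAD1/LAD1), -0.0002 (HAD2/LAD2), 1.7e-05 (AA/ANA) and 0.08 (sP/sNP). Line medians there were 4.41 and 4.40, 4.71 and 4.69, 5.83 and 5.74, and 5.66 and 5.58, each pair overlapping.

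Chrna7 encodes the alpha7 subunit of the rapidly desensitising homomeric receptor. Its lowest, median and highest signals were 6.26, 6.40 and 6.90 in P and 6.22, 6.38 and 6.79 in NP, and 6.58, 6.88 and 7.09 in HAD1 and 6.69, 6.85 and 7.08 in LAD1. They were 6.82, 6.93 and 7.18 in HAD2 and 6.70, 6.83 and 7.17 in LAD2. In AA they were 6.63, 6.94 and 7.46, in ANA 6.61, 6.94 and 7.19, in sP 6.70, 6.89 and 7.22, and in sNP 6.65, 6.89 and 7.15. The preferring line had the higher mean in all 5 pairs, by 0.01 to 0.08 with standard errors of 0.064 to 0.092, and each 95% interval included 0.

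Chrna6 and Chrnb3 lie side by side in the genome and encode subunits found together in receptors on dopamine terminals, whose cell bodies are in the midbrain. Chrna6 differed by 0.06 in P/NP, 0.05 in HAD1/LAD1, -0.03 in HAD2/LAD2, -0.004 in AA/ANA and 0.05 in sP/sNP, and each 95% interval included 0. Its line medians within pairs were 5.45 and 5.44, 6.97 and 6.94, 7.43 and 7.42, 6.18 and 6.20, and 6.03 and 5.96, so that both lines of a pair sat at nearly the same signal. For Chrnb3, sP rats had 4.93, 5.13 and 5.29 and sNP rats 5.09, 5.27 and 5.39. The sP mean was lower by 0.12 on this scale, -0.12 ± 0.049 (interval -0.22 to -0.02, unadjusted p = 0.0236, limma adjusted p = 0.103), with overlap. The Chrnb3 differences of the other pairs were -0.03 in P/NP, -0.09 in HAD1/LAD1, 0.09 in HAD2/LAD2 and 0.03 in AA/ANA. Over the 97 arrays, line means removed, Chrna6 and Chrnb3 correlated at r = 0.09.

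Chrna3 and Chrnb4 belong with Chrna5 to a gene cluster and encode the main receptor of autonomic ganglia. Chrna3 signals in sP were 5.76, 6.01 and 6.23 (lowest, median, highest) and in sNP 5.96, 6.10 and 6.46. The difference was -0.20 ± 0.081 (interval -0.37 to -0.04, unadjusted p = 0.0202, limma adjusted p = 0.0937), and the lines overlapped between 5.96 and 6.23. In HAD2/LAD2 (0.14), AA/ANA (0.13) and HAD1/LAD1 (0.08) the preferring line had the higher mean, and in P/NP the difference was -0.02, none of them past an unadjusted p of 0.05. Without the departing arrays the Chrna3 difference was 0.19 in AA/ANA (unadjusted p = 0.0451, limma adjusted p = 0.347) and 0.003 in HAD1/LAD1. Chrnb4 differed by -0.05 (HAD2/LAD2) to 0.08 (AA/ANA). Its line medians were 5.27 in P and 5.24 in NP, 5.98 in HAD1 and 5.94 in LAD1, 6.16 in HAD2 and 6.15 in LAD2, 5.25 in AA and 5.20 in ANA, and 4.92 in sP and 4.93 in sNP. The clustered genes did not vary together between animals of a line: r was -0.02 for Chrna3 with Chrna5, 0.08 for Chrna3 with Chrnb4 and 0.02 for Chrna5 with Chrnb4.

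Chrna2, whose subunit marks scattered interneurons in the brain, differed by -0.11 ± 0.073 in sP/sNP, 0.10 ± 0.065 in HAD1/LAD1, 0.09 ± 0.058 in HAD2/LAD2, 0.03 ± 0.082 in AA/ANA and 0.02 ± 0.062 in P/NP. The sP animals lay between 5.19 and 5.68 and the sNP animals between 5.37 and 5.86. None of these passed an unadjusted p of 0.05, and in each pair the ranges of the lines overlapped.

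**Figure D2:**
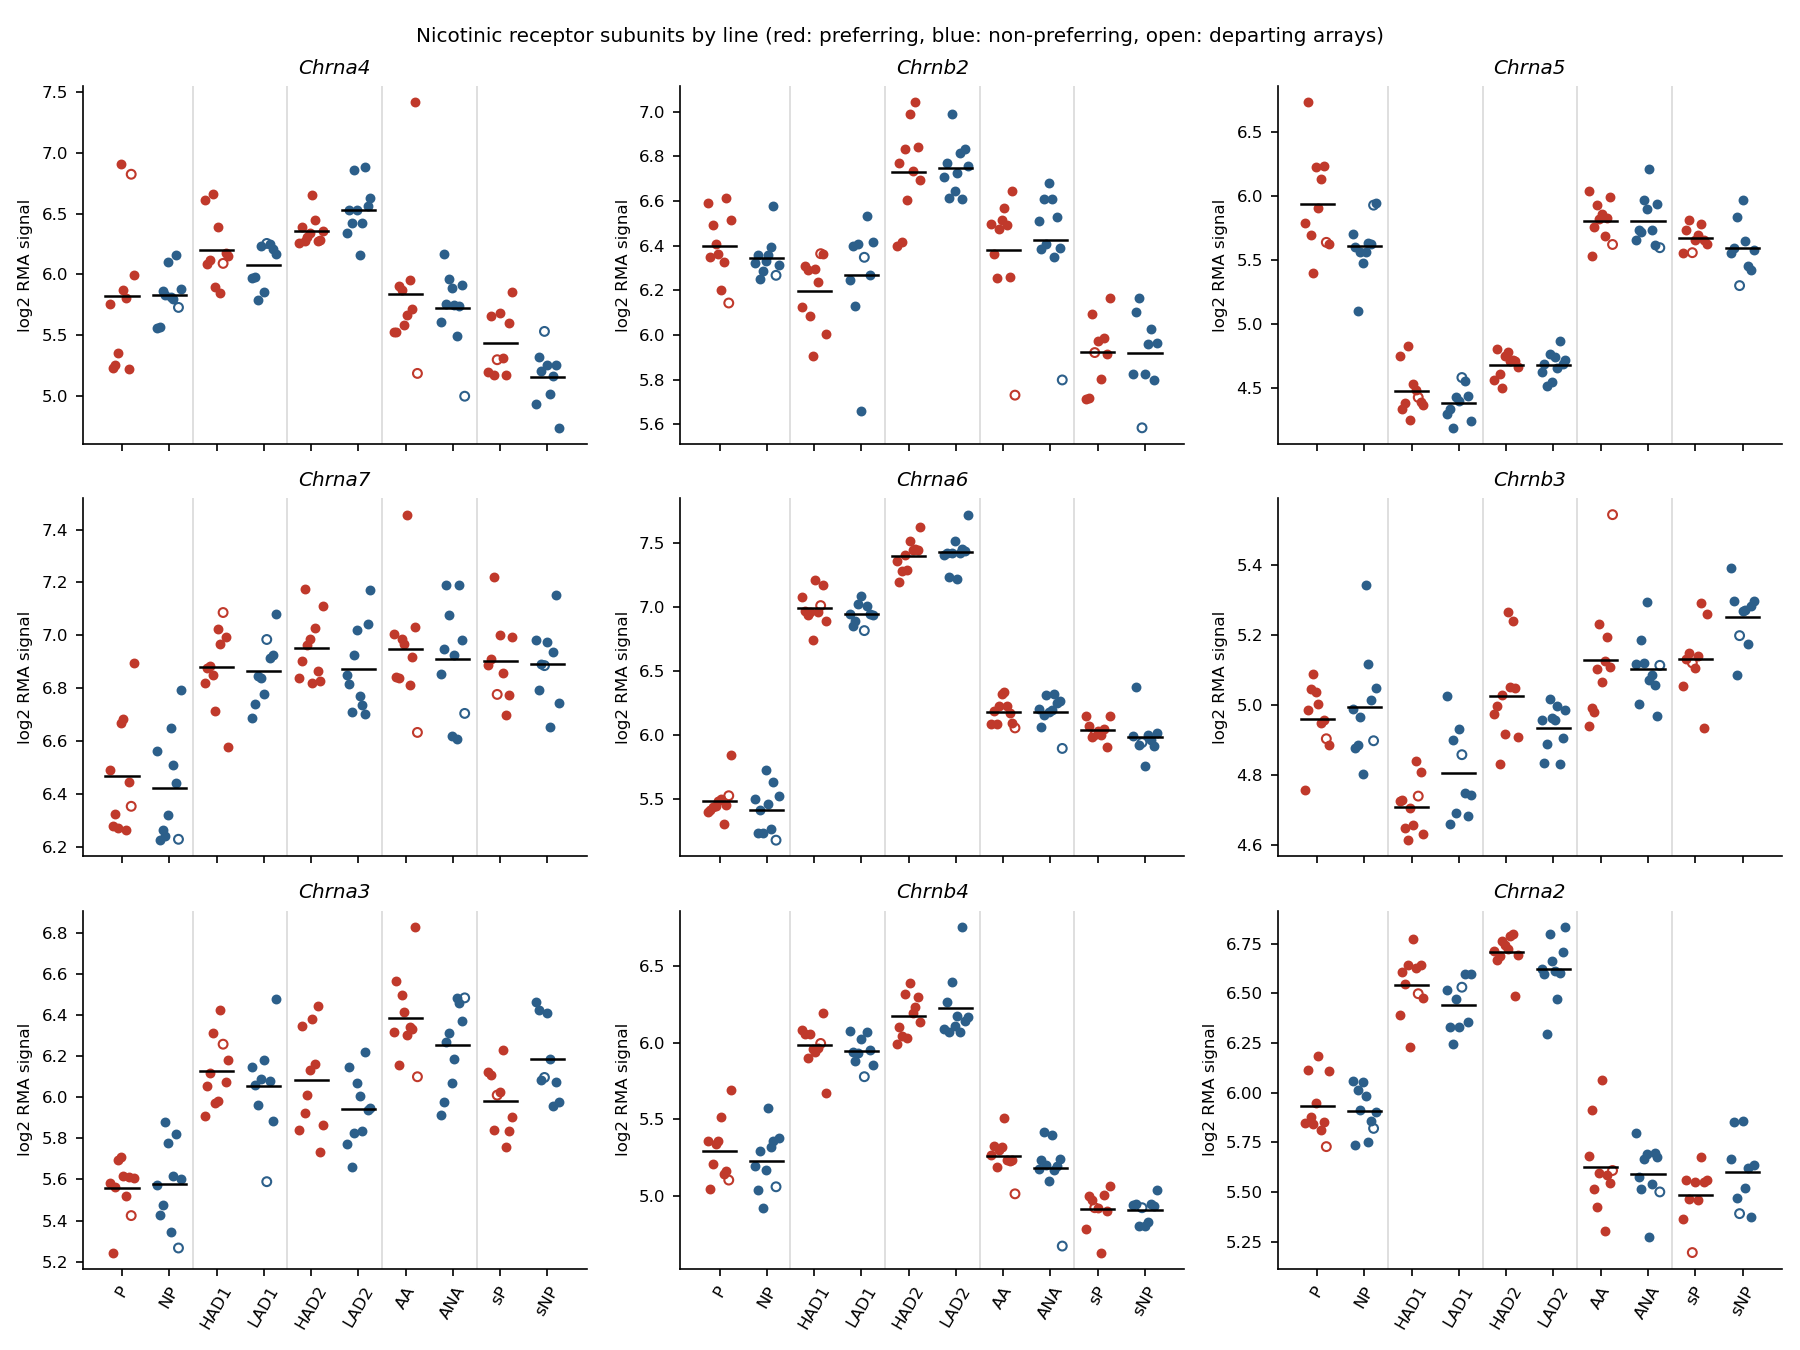
Signal of each of the 9 nicotinic subunits in each of the 97 rats (points, log2 RMA), with the mean of each of the 10 lines as a bar, preferring lines in red, non-preferring lines in blue and departing arrays as open symbols. The lines of a pair overlap in every panel, while the pairs sit at different heights, for example Chrna6 with pair means from 5.45 in P/NP to 7.41 in HAD2/LAD2.

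Over the 5 pairs together no subunit passed either. The unweighted average of the 5 differences was 0.10 ± 0.040 for Chrna5 (interval 0.02 to 0.18, unadjusted p = 0.0173, limma adjusted p = 0.207). Of all probe sets 14.1% had an unadjusted p under 0.05 in this limma test. The preferring line had the higher Chrna5 mean in 4 of 5 pairs, by 0.32 in P/NP but by only 1.7e-05 in AA/ANA. For Chrna4 the average was 0.07 ± 0.069, and -0.02 without P 5, P 9 and AA 17 (limma adjusted p = 0.937), arrays that stand apart for this gene as described below. For Chrna7 it was 0.04 ± 0.036, and the other 6 lay between -0.03 and 0.03. Of all probe sets 3.37% passed this test with animals as the spread, and none of 31042 passed with the 5 pairs as the replicates, the unit that was bred (3.91% had an unadjusted p under 0.05 in limma). The members' limma adjusted p-values in that fit were 0.948 to 0.969. The test of whether the 5 differences were unequal called none of the 9, against 11.7% of all probe sets. The lowest p-values in it were 0.0404 for Chrnb3 (limma adjusted p = 0.186) and 0.0463 for Chrna3 (limma adjusted p = 0.202). Both had differences of opposite sign in sP/sNP and HAD2/LAD2.

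The level of these signals bears on how far such differences can be read. The files hold no detection calls. The mean signals of the 9 probe sets over all arrays lay between 5.00 (Chrnb3) and 6.81 (Chrna7), below the median of all probe sets, 7.92. Of all probe sets, 8.51% were dimmer than that of Chrnb3 and 35.2% were dimmer than that of Chrna7. The 24 measured genes of a list known for their use in other organs, such as insulin (Ins2), protamines (Prm1, Prm2) and digestive enzymes (Cela1, Cpa1), had means from 4.30 to 7.24. The members' range lies inside that of the other-organ genes. The median of those genes was 5.27, with Chrnb3 below it, Chrna5 at 5.27 as well and the other subunits above it. Probes differ in their own background, so this does not show that a subunit mRNA was absent, and no order of levels between subunits is given.

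Array by array, 5 of the subunits followed the mean of those 24 other-organ genes. With line means removed, Chrna6 correlated with it at r = 0.66 over the 97 arrays (Spearman rho 0.626, both at a permutation p of 1e-05, the smallest that 100000 permutations within lines can give; adjusted over 45 relations 9e-05 for r and 7.5e-05 for rho). The same p-values held for Chrnb4 (r = 0.613, rho 0.56), Chrnb2 (0.599, 0.551) and Chrna2 (0.53, 0.533). Chrna7 had r = 0.502 and rho 0.47, each at a permutation p of 2e-05 and an adjusted p of 0.000112. Chrna4 followed less closely (r = 0.296, adjusted permutation p = 0.0324; rho 0.345, adjusted permutation p = 0.00382), and Chrna3 (0.185), Chrnb3 (0.141) and Chrna5 (0.0807) had adjusted permutation p-values of 0.244, 0.424 and 0.723.

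These relations also stood within most pairs (18 to 20 arrays each). Within P/NP, HAD1/LAD1, HAD2/LAD2, AA/ANA and sP/sNP, r was 0.745, 0.664, 0.787, 0.788 and 0.174 for Chrna6 and 0.677, 0.487, 0.503, 0.806 and 0.467 for Chrnb4. It was 0.383, 0.562, 0.624, 0.766 and 0.557 for Chrnb2, 0.407, 0.77, 0.537, 0.518 and 0.505 for Chrna2, and 0.744, 0.614, 0.293, 0.663 and -0.113 for Chrna7, so that Chrna6 and Chrna7 had their lowest values in the Sardinian lines. Without ANA 20 and HAD2 6, the arrays farthest from the median of the list, the 5 values were 0.533 to 0.635, and without the departing arrays 0.437 to 0.637. Of all probe sets 7.93% had an r above 0.5 with this list (median 0.0192), and of the 7743 dimmest, those below the 25th percentile of mean signal, 15% had (median 0.298). The r of Chrna6 exceeded that of 98.9% of all probe sets, that of Chrnb4 97.6%, of Chrnb2 97.1%, of Chrna2 93.9% and of Chrna7 92.2%. RNA integrity, read as Gapdh 3' minus 5' control signal, also moved with some of the 5, with a within-line r of -0.4 for Chrna6, -0.347 for Chrnb2, -0.317 for Chrnb4, -0.156 for Chrna2 and -0.114 for Chrna7. Its part in these relations was not tested.

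**Figure D3:**
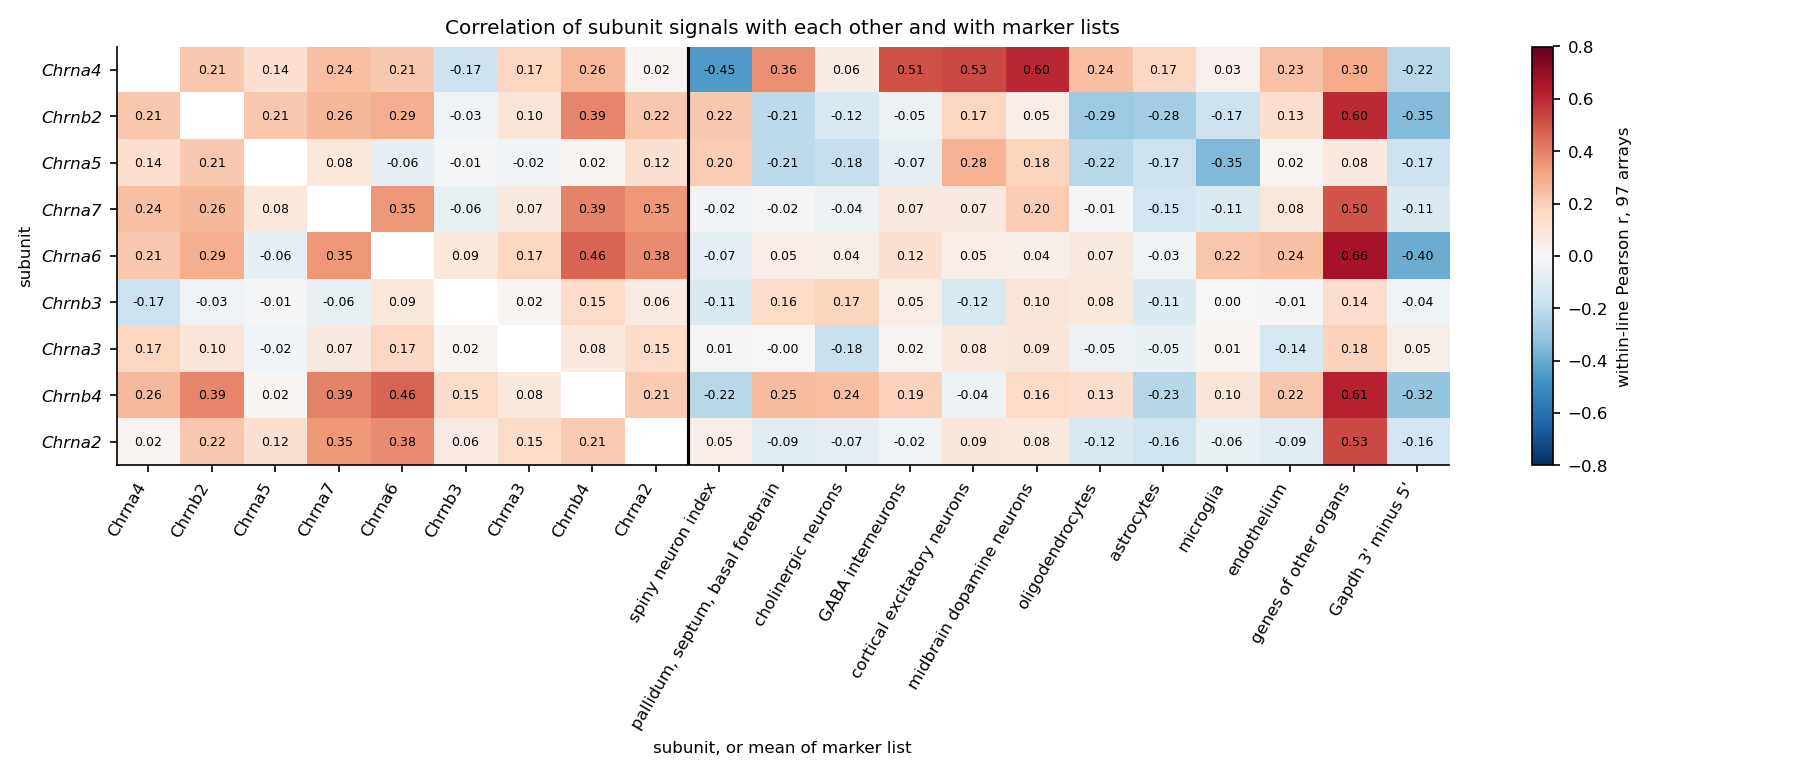
Pearson correlation of each nicotinic subunit (rows) with the other subunits, the spiny neuron index, the cortical marker mean, the mean of the genes of other organs and other marker lists over the 97 arrays, line means removed. Chrna6, Chrnb4, Chrnb2, Chrna2 and Chrna7 have r between 0.502 and 0.66 with the genes of other organs, while Chrna4 has -0.452 with the spiny neuron index, 0.527 with the cortical, 0.605 with the midbrain and 0.508 with the GABA interneuron markers.

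Chrna4 was highest on 3 arrays whose cell type markers stood apart from those of their line. These arrays, the farthest above their line mean, were AA 17 (by 1.58), P 5 (by 1.09) and P 9 (by 1.0), and the lowest were ANA 20 (-0.73) and AA 19 (-0.65). Markers that stood apart did not always go with high Chrna4. The spiny neuron index minus its line mean was -1.83 in P 10 and -1.71 in AA 19, near the -1.73 of P 9. Chrna4 in P 10 was 0.17 above its line mean. In AA 17, markers of cortical excitatory neurons stood far above those of the other 9 AA rats. Slc17a7, the vesicular glutamate transporter of cortex, was at 10.74 against 5.28 to 6.43, and the transcription factor Neurod6 at 9.75 against 4.71 to 5.40. The growth factor Bdnf was at 9.44 against 5.13 to 6.45. The mean of the 5 cortical markers measured was 8.40 in AA 17, against a median of 5.74 over the AA line. Tbr1, also a cortical marker, was at 5.16, inside 4.84 to 5.36, and the dopamine receptor Drd1 at 12.73 lay inside the range of the other AA rats, 12.19 to 13.39.

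P 5 and P 9, the latter a departing array, showed another pattern. Drd1 was at 8.93 in P 5 and 10.23 in P 9, below the 11.62 to 13.72 of the other 8 P rats, and Ppp1r1b, the phosphatase inhibitor DARPP-32 of spiny neurons, was at 8.91 and 10.998 against 11.48 to 13.85. Penk, also of the spiny neuron list, was at 13.13 in P 5, below the 13.41 to 14.71 of those rats. In P 9 Penk was at 14.16, inside that range. The glutamate transporter Slc17a6, typical of subcortical excitatory neurons, was at 11.70 in P 5 and 11.44 in P 9 against 6.25 to 11.07. The mean of the whole pallidal, septal and basal forebrain list was 8.49 in P 5 and 7.92 in P 9. In the other 8 P rats that mean ran from 6.81 to 8.34. The peptide galanin (Gal) was at 10.48 and 11.01 against 5.65 to 8.03. Without these arrays the Chrna4 difference of P/NP was -0.27 ± 0.117 (unadjusted p = 0.0325, limma adjusted p = 0.452), a comparison chosen after the values were seen, as were Bdnf, Slc17a6 and Gal as genes to name.

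Over all arrays, line means removed, Chrna4 correlated with the spiny neuron index at r = -0.452 (permutation p = 0.00048, adjusted 0.0024) and rho = -0.427 (permutation p = 0.00014, adjusted 0.0007). Without P 5 and P 10, farthest from the median index, r was -0.371, without the departing arrays -0.507, and without P 5, P 9 and AA 17 -0.395. The relation was that of P/NP (-0.814) and sP/sNP (-0.762), and it was not seen in HAD1/LAD1 (0.188), HAD2/LAD2 (0.146) or AA/ANA (-0.0268). The index moves much of the array: 71.2% of probe sets had a smaller r in size than Chrna4. With the mean of the cortical markers Chrna4 had r = 0.527 and rho = 0.42 (each permutation p = 2e-05, adjusted 0.000112), an r of 0.345 without AA 17 and LAD1 37, and 0.573 without the departing arrays, and 99.1% of probe sets had a smaller r in size with this list. Within pairs this was 0.384 in P/NP, 0.766 in HAD1/LAD1, 0.16 in HAD2/LAD2, 0.816 in AA/ANA and 0.105 in sP/sNP. Chrna5 had r = 0.277 with the cortical markers (adjusted permutation p = 0.00418) and rho = 0.233 (adjusted permutation p = 0.0715), with 0.747 within HAD1/LAD1 and -0.12 to 0.352 within the others. The other 7 subunits had adjusted permutation p-values above 0.05 for Pearson's r with both measures. By Spearman's rho Chrna6 also had 0.248 with the cortical markers (adjusted permutation p = 0.0479).

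Chrna4 also followed lists named for other neurons, and these relations were computed after their values were seen. With 6 markers of midbrain dopamine neurons it had r = 0.605 and rho = 0.519 (each permutation p = 1e-05, the smallest possible, adjusted 9e-05 and 7.5e-05), with 99.6% of probe sets at a smaller r in size. It was 0.447 without P 5 and AA 17, 0.421 without P 5, P 9 and AA 17, 0.642 without the departing arrays, and 0.807, 0.599, 0.0625, 0.623 and 0.409 within P/NP, HAD1/LAD1, HAD2/LAD2, AA/ANA and sP/sNP. The members of the list differed in sign. The nuclear receptor Nr4a2, made by dopamine neurons and also in deep cortex and claustrum, had r = 0.633 with Chrna4 and stood at 11.03 in AA 17 (the other 9 AA rats 6.26 to 7.15), 8.39 in P 5 and 8.10 in P 9 (the other 8 P rats 6.38 to 7.68). Th, which makes the dopamine precursor, had 0.41 and the transcription factor Pitx3 0.373, whereas the dopamine transporter Slc6a3 had -0.0448, Slc18a2 -0.133 and Ddc -0.384. In AA 17 Th (6.16), Slc6a3 (6.96) and Pitx3 (5.07) lay within the range of the other AA rats. Slc18a2 in AA 17 was at 5.98, below their 6.07 to 7.07, and Ddc at 8.06, below their 8.31 to 9.34. In the P line Th was at 7.29 in P 5 and 5.80 in P 9 against 5.11 to 5.62 in the other 8 P rats. Slc6a3 was at 6.05 in P 5, below the 6.11 to 6.44 of those 8 rats, and at 6.14 in P 9. Slc18a2 was at 7.04 in P 5 and 7.34 in P 9 against 6.80 to 7.18. Ddc was at 9.291 in P 5 and 8.957 in P 9 against 8.961 to 9.250. Pitx3 lay within the range of those 8 rats in both arrays.

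With 7 markers of GABA interneurons Chrna4 had r = 0.508 (permutation p = 2e-05, adjusted 0.000112) and rho = 0.535 (permutation p = 1e-05, adjusted 7.5e-05), and 87.3% of probe sets had a smaller r in size. It was 0.497 without AA 1 and AA 3 and 0.499 without the departing arrays. Within pairs it was 0.509 in P/NP, 0.571 in HAD1/LAD1, -0.452 in HAD2/LAD2, 0.671 in AA/ANA and 0.538 in sP/sNP. Single markers again differed: the peptide Vip had 0.568, Kit 0.42 and Pvalb 0.417, while Npy had -0.548 and Sst -0.119. The other 8 subunits had adjusted permutation p-values above 0.05 with both lists.

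**Figure D4:**
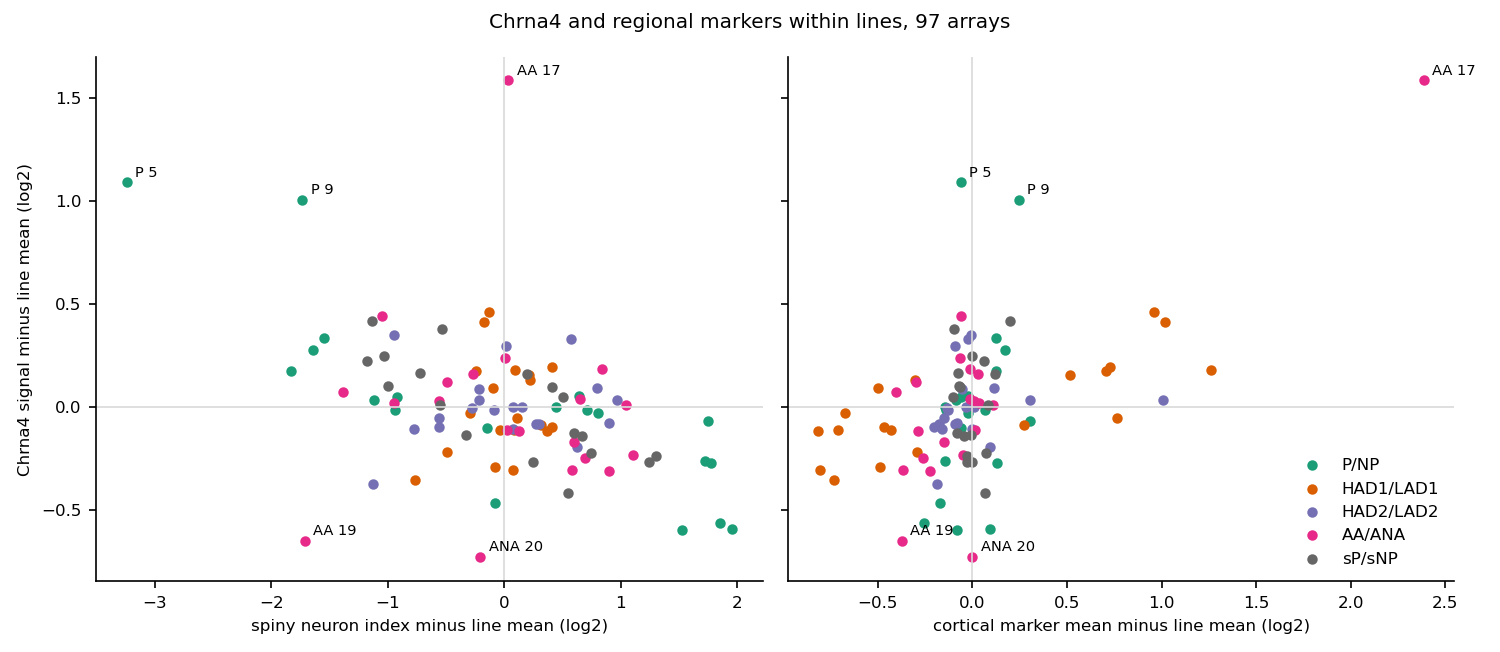
Chrna4 signal of each of the 97 rats, as the distance from its line mean in log2 units, against the spiny neuron index and against the mean of the cortical markers, each also as the distance from the line mean. P 5 and P 9 lie at low index and high Chrna4, and AA 17 lies apart at high cortical markers and the highest Chrna4.

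The genes most like each subunit over the 97 arrays, line means removed, were named by a rule that takes the 3 highest correlations. For Chrna4 they were the tyrosine phosphatase Ptpn3 (r = 0.76), the alpha-1D adrenergic receptor Adra1d (0.76) and Adcyap1, the precursor of the peptide PACAP (0.75). For Chrna5 they were the presynaptic scaffold Bsn (0.45), Rapsn, which clusters nicotinic receptors at the neuromuscular junction (0.43), and Rapgefl1 (0.42). Chrna3 was closest to the neuronal genes Map6d1 (0.46) and Cdk5r2 (0.42) and the kinase gene Sbk1 (0.42). The lists of the other subunits hold several genes best known from organs outside the brain.

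Chrna2 was closest to the gut hormone gene Gip (0.55), the leukocyte integrin Itgb7 (0.55) and the skin gene Lce3b (0.54). Chrna6 was closest to the cytochrome P450 gene Cyp4a3 (0.68), the growth factor Csf1 (0.68) and the natural killer cell receptor Klrk1 (0.65), and Chrna7 to Rdh16 (0.63), Scarf1 (0.61) and Col26a1 (0.61). Chrnb2 had the delta opioid receptor Oprd1 (0.69), Bmp6 (0.68) and Kmt2d (0.68), Chrnb3 had Insrr (0.44), Klf2 (0.43) and Tdo2 (0.42), and Chrnb4 had Kmt2d (0.73), Zfpm2 (0.72) and the heart transcription factor Hand2 (0.72). Among the 36 pairs of subunits r ran from -0.17 to 0.46 with a median of 0.15, and 6 were above 0.3. The highest were Chrna6 with Chrnb4 (0.46), Chrna7 with Chrnb4 (0.39) and Chrnb2 with Chrnb4 (0.39), all among the 5 that followed the genes of other organs.

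Levels differed far more between pairs than between the lines of a pair. All 9 subunits passed the test of unequal pair means, as did 99.1% of all probe sets, and pair, laboratory of origin and any processing group cannot be told apart. RNA quality moved with the pairs too: the Gapdh 3' minus 5' control signal, larger where less full-length RNA was labelled, had pair means of 0.12 in P/NP, 0.09 in AA/ANA, 0.44 in sP/sNP, 2.87 in HAD2/LAD2 and 4.80 in HAD1/LAD1. Its part in the levels was not tested. The lower quartile of all signals on an array was 5.79 to 5.90 in sP/sNP, 5.95 to 6.11 in P/NP, 5.99 to 6.10 in HAD1/LAD1 and 6.12 to 6.24 in HAD2/LAD2, and 5.99 to 6.11 in the AA and ANA arrays other than AA 19 and ANA 20. Pair means of Chrna6 were 5.45 in P/NP, 6.01 in sP/sNP, 6.18 in AA/ANA, 6.97 in HAD1/LAD1 and 7.41 in HAD2/LAD2, a range of 1.96 that exceeded that of 94.9% of probe sets. Chrna5 ran the other way, with 4.43 in HAD1/LAD1 and 4.68 in HAD2/LAD2 and then 5.64 in sP/sNP, 5.77 in P/NP and 5.81 in AA/ANA, the last 3 with overlapping animals. The ranges were 1.3 for Chrnb4, 1.15 for Chrna4, 1.12 for Chrna2, 0.82 for Chrnb2, 0.75 for Chrna3, 0.48 for Chrna7 and 0.43 for Chrnb3.

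The HAD and LAD lines stood apart for 3 subunits. The same arrays stood apart in the Gapdh 3' minus 5' signal, at 2.3 to 5.38 against -0.06 to 0.80 in the other 3 pairs, so that line origin and RNA quality cannot be told apart in this split. Every one of their 39 arrays was above every one of the other 58 for Chrna2 and Chrna6, and below every one for Chrna5. Of all probe sets 17% had such a gap in either direction, and of the 24 genes of other organs 2 had. The split was chosen after the values were seen and is given as a description. For Chrna4 the pair means were 5.30 in sP/sNP, 5.78 in AA/ANA, 5.83 in P/NP, 6.14 in HAD1/LAD1 and 6.45 in HAD2/LAD2, and the individual ranges of neighbouring pairs in this order overlapped.

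Of 31 related genes (muscle and other nicotinic subunits, receptor chaperones, prototoxins of the Ly6 family, and enzymes and transporters of acetylcholine) 28 were measured. None passed in P/NP, HAD1/LAD1, AA/ANA or on average over the pairs. In HAD2/LAD2 the choline transporter Slc5a7 was lower in HAD2 (-0.36, limma adjusted p = 0.0143), with 2.48% of all probe sets passing in that direction. In sP/sNP 4 of 28 were higher in sP and none lower, where 7.08% of all probe sets passed as higher. These were Ric3, a chaperone of alpha7 receptors (0.30, limma adjusted p = 0.0286), Tmem35a, a chaperone needed for alpha7 assembly (0.34, limma adjusted p = 0.0344), Lypd6b, a Ly6 protein (1.2, limma adjusted p = 0.0388), and Lynx1, which binds nicotinic receptors and dampens them (0.49, limma adjusted p = 0.0412).

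The median difference of the 28 related genes in sP/sNP was 0.03, against -0.0005 for all probe sets. With the spiny neuron index as covariate the 4 differences were 0.16 for Ric3, 0.05 for Tmem35a, 0.09 for Lypd6b and 0.04 for Lynx1, none passing (limma adjusted p = 0.942 for Ric3 and 1 for the others). In that fit 0.941% of all probe sets passed, against 12.9% without the index, so the loss of calls says nothing particular about these genes. Without the departing arrays Ly6e, another Ly6 family member, was higher in sP as well (0.23, limma adjusted p = 0.0337, with 15% of all probe sets passing), which makes 5 of 28. Without them Ric3 was also lower in AA than in ANA (-0.33, limma adjusted p = 0.00365, with 4.44% of all probe sets passing). Without them Chat, which makes acetylcholine, and Slc5a7 were lower in HAD1 than in LAD1 (-0.34, limma adjusted p = 0.0331, and -0.24, limma adjusted p = 0.0483, with 3.98% passing). The calls gained without the departing arrays are descriptions, because those arrays were chosen on line separation.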

How the data were processed

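RNA of the nucleus accumbens shell of 97 rats was extracted with Trizol and RNeasy columns, and 25 ng of it was amplified in 2 cycles and labelled with biotin, per the labels' protocols. The authors deposited log2 RMA signals, with RMA named per the submitters' processing notes; its version, and whether all arrays were summarised together, are not given in the sources used here. Raw intensities were not used here. Values (3.56 to 16.06 over 31099 probe sets) were used as deposited. Left out were 57 AFFX controls; of 31042 probe sets 20826 carry 1 symbol, 436 several and 9780 none, and genes are named only from probe sets with 1 symbol.

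Each pair was fitted alone with limma 3.58.1 in R 4.3.3 (lmFit, eBayes, two-sided), as preferring minus non-preferring line, and p-values were adjusted by Benjamini and Hochberg over all 31042 probe sets, with calls at an adjusted p under 0.05. Fits with 1 mean per line gave the average, the test of unequal differences and that of unequal pair means. A limma fit of the 5 differences took the pairs as replicates. The label score uses the 50 probe sets that best part the lines of a pair in the other animals; arrays over 0.3 from their end depart. The scripts were tested on simulated data. All 9 members are described. Called genes of the lists, at most 4 per comparison with the smallest adjusted p, and the 3 genes most correlated with each member are named. Members, lists and tests were chosen with earlier results of these data known. Alternatives were array centring, trend and robust eBayes, a dim filter at the 25th percentile, covariates, shared spread, arrays left out and a replicate block. The number of arrays limits the precision, and where labels do not say how animals were kept or processed, p-values measure the spread between these samples.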

Additional observations from a re-analysis of the deposited data

Results flagged for a closer look

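Within lines of 9 or 10 animals, 13 of 90 sets of values had an animal whose gap to its nearest neighbour was a large share of the line's range, where chance gives about 1 in 20. The share is given for each, followed by the signal of the animal and that of its nearest neighbour. For Chrna4, AA 17 stood above its line (0.656, 7.42 against 5.95), the array with cortical markers described above, and HAD2 6 above HAD2 (0.523, 6.66 against 6.45). For Chrnb2, ANA 20 (0.625, 5.80 against 6.35), AA 19 (0.573, 5.73 against 6.26) and LAD1 35 (0.541, 5.66 against 6.13) were low, and NP 8 (0.567, 6.58 against 6.39) was high. ANA 20 was also low for Chrnb4 (0.568, 4.67 against 5.10), and AA 19 high for Chrnb3 (0.519, 5.54 against 5.23). These 4 values of AA 19 and ANA 20 belong to the arrays that correlated most with the sP and sNP arrays. Their lower quartile of all signals was 5.81 to 5.85, inside the 5.79 to 5.90 of sP/sNP and outside the 5.99 to 6.11 of the other 18 AA and ANA arrays. Their Gapdh 3' minus 5' signal was 0.54 in AA 19 and 0.40 in ANA 20, against -0.06 to 0.21 in those 18 arrays.

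The dopamine terminal subunit Chrna6 was high in P 10 (0.594, 5.84 against 5.53) and in sNP 2 (0.579, 6.38 against 6.02). Chrna2 was low in HAD2 9 (0.588, 6.49 against 6.67), Chrna7 high in AA 11 (0.518, 7.46 against 7.03), and Chrnb4 high in LAD2 18 (0.52, 6.75 against 6.40).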

How the results depend on the processing

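The counts of called subunits, 0 in each pair, on average and for unequal differences, kept their value in 149 of 154 recomputed counts. The exceptions were as follows. Chrna5 made the P/NP count 1 with 1 fit of all 10 lines (0.32, limma adjusted p = 0.0241). Chrna4 made the sP/sNP count 1 without the departing arrays (0.35, limma adjusted p = 0.0435), and over single arrays left out that count ran from 0 to 1, with 1 only without sNP 4 (limma adjusted p = 0.0406). The array sNP 4 is itself a departing array, and leaving such arrays out favours line differences. With the replicate block on animal number, Chrna3 made the sP/sNP count 1 (-0.20, limma adjusted p = 0.0256), where 16.2% of all probe sets passed. Same-numbered animals did not deviate together in every case (r from -0.591 to 0.774 in P/NP and -0.22 to 0.56 in sP/sNP), so the numbers are not taken as pairs. The dim filter left 3 subunits, all 3 of which differed among pair means. Of 369 recomputed single differences 366 stayed on their side of the threshold and 3 passed it. In 22 uncalled cases the sign changed, once for a difference with an unadjusted p under 0.05 (Chrna4 in sP/sNP, spiny neuron index as covariate). With that covariate, added after the data were seen, all 7 related or neighbouring genes called in sP/sNP lost their call, and Hook3 changed sign (-0.014). The share of all probe sets passing in sP/sNP fell from 12.9% to 0.941% in that fit, so most calls of any list were lost.

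Counts over all probe sets moved by over 1.5 times as well. In P/NP 326 became 661 without departing arrays, 759 with shared spread, 180 with the Gapdh covariate, 837 with the index and 197 with the block. In HAD1/LAD1 371 became 1237, 743 with shared spread and 198 with the index, and in AA/ANA 728 became 1378 without departing arrays. In sP/sNP 4006 became 863 with the Gapdh covariate, 292 with the index and 419 with the index and no departing arrays. Signals near those of genes of other organs limit what a small difference can show.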

Other observations

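Genes that lie beside the 2 nicotinic clusters were measured as well, and the values are given with no reading of cause. Of 6 neighbours of the Chrna5, Chrna3 and Chrnb4 cluster, all measured, Hykk, which encodes hydroxylysine kinase, was higher in sP than in sNP (0.25, limma adjusted p = 0.00359), and none passed in the other pairs. Of all probe sets 12.9% passed in sP/sNP, 7.08% as higher in sP, and 1.05% to 4.6% passed in the other pairs. The count of 1 among 6 therefore says nothing particular about these neighbours. With the spiny neuron index as covariate the Hykk difference was 0.20 ± 0.058 (unadjusted p = 0.00268, limma adjusted p = 0.167). In that fit 0.941% of all probe sets passed. The cluster's own subunits in this pair had -0.20 (Chrna3), 0.08 (Chrna5) and 0.005 (Chrnb4) without the index. With the index they had -0.14, 0.15 and -0.05 in the same order.

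Of 6 neighbours of Chrnb3 and Chrna6, 5 were measured. The phosphate transporter Slc20a2 (0.35, limma adjusted p = 0.0338) and Hook3, an adaptor of the motor dynein (0.59, limma adjusted p = 0.0464), were higher in sP, where 7.08% of all probe sets passed as higher. Without the departing arrays Fnta, a subunit of protein farnesyltransferase, passed as well (0.33, limma adjusted p = 0.0373, with 15% of all probe sets passing in either direction). Leaving out those arrays favours line differences, so the Fnta call is a description. With the index as covariate Slc20a2 and Hook3 had 0.04 and -0.014. On average over the 5 pairs Smim19 was higher in the preferring lines (0.12, limma adjusted p = 0.0367), where 3.37% of all probe sets passed in either direction. That test takes the animals as the spread. With the 5 pairs as the replicates none of 31042 probe sets passed, and Smim19 passed in no single pair.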
